A study of Homo sapiens with 4 samples.

Results

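The 42 kinesin genes were followed in ribosome footprints of HCT-8, an established line from a human colorectal adenocarcinoma, here made resistant to the drug 5-fluorouracil. They are the rows of the 4 count tables whose symbol is KIF or KIFC with a number and at most 1 letter A to C, 42 of 20323 rows, each with a row of its own. The OE group (2 libraries) carried a METTL14 overexpression plasmid and the NC group (2 libraries) a negative control plasmid; both groups were resistant HCT-8 cells given 100 ug/mL cycloheximide, which holds ribosomes on messages. The submitters describe the experiments as independent, and p-values measure only the spread between these libraries. Footprint counts move with how much message a cell holds and with how densely ribosomes sit on it, and no total RNA library was analysed here. Fewer cells of a type and less RNA per cell cannot be told apart in such bulk samples.

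Kinesins are motor proteins that use ATP to walk along microtubules, or to take microtubules apart at their ends. In dividing cells a set of them builds the spindle, moves chromosomes and completes cytokinesis. Others carry mitochondria, vesicles, endosomes and RNA, mostly outward from the cell centre, bound to light chains and adaptor proteins, and a further set serves cilia and signalling. Spindle kinesins such as KIF11 are drug targets in proliferating tumour cells. METTL14 forms, with METTL3, the enzyme that places N6-methyladenosine on messages.

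METTL14 had 448 and 91.2 CPM in OE, against 44.5 and 47.6 CPM in NC, and lay higher in both OE libraries, at an adjusted p of 0.734 (edgeR quasi-likelihood, Benjamini-Hochberg across the whole table). CPM is the footprint count per 1000000 of the library total after TMM scaling. The libraries held between 7742274 and 24392875 estimated counts, the fewest in OE replicate 1. That library stood apart: its correlation with OE replicate 2 was 0.863 across the log2 CPM of 12560 genes, against 0.983 between the NC libraries (genes are not independent replicates). In it, genes of low NC level lay above NC and genes of high NC level below, with medians from 1.17 in the lowest of 10 level bins to -1.08 in the highest. Levels are therefore given per library for most named genes. Of 10 epithelial markers, EPCAM, KRT8, KRT18, KRT19 and CDH1 had between 467 and 10600 CPM in every library, while KRT20 and CDX1 stayed between 0.463 and 6.42 CPM. In both OE libraries 5 of the 10 lay lower (EPCAM, KRT19, CDH1, VIL1 and CDH17) and 1 higher (CDX2), with 0 called. Among all genes 20.4% lay lower and 19.9% higher in both OE libraries. VIL1 had 32.9 and 40.3 CPM in OE, against 74.0 and 82.2 CPM in NC, with -1.09 (SE 0.31) and an unadjusted p of 0.0162 (edgeR). The 10 summed to 6210 and 24600 CPM in OE, against 21800 and 21200 CPM in NC. Of 12 markers of other cells, 10 stayed at or below 0.381 CPM and COL1A1 between 1.36 and 4.87 CPM, while the row named GFAP, an astrocyte gene, had 105 and 635 CPM in OE, against 362 and 291 CPM in NC. Whether those counts come from GFAP messages could not be settled from the counts. Their part in the kinesin results was not tested.

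Of the 42 kinesin genes, 35 passed the filter on low counts and were tested. Kinesins together took 0.289% and 0.143% of all counts in OE replicates 1 and 2, against 0.148% and 0.162% in NC replicates 1 and 2. Their summed level was 2130 and 1580 CPM in OE, against 1670 and 1780 CPM in NC, so the OE libraries lay on opposite sides of NC. At an adjusted p below 0.05 (edgeR quasi-likelihood, Benjamini-Hochberg), 0 of the 35 were called, as were 0% of all 12560 genes, of which 691 had an unadjusted p below 0.05. The same was true of 3 kinesins (KIF18B, KIF6 and KIFC2), or 8.57% of those tested, against 5.5% of all genes. Of the 3, KIF6 passed the filter on low counts only through its OE libraries. Its higher level in OE is therefore not independent of that filter. The DESeq2 Wald test called 0 kinesins (0.199% of all genes), the edgeR likelihood ratio test 0 (0.231%) and the fit with a replicate block 0 (0.191%). With DESeq2 the smallest adjusted p of a kinesin was 0.0604, for KIFC2. The log2 fold changes ran from -0.69 for KIF1A to 3.03 for KIF6, with a median of 0.26 beside 0.09 over all genes tested, and 23 of 35 were positive, beside 56.2% of all genes.

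**Figure D1:**
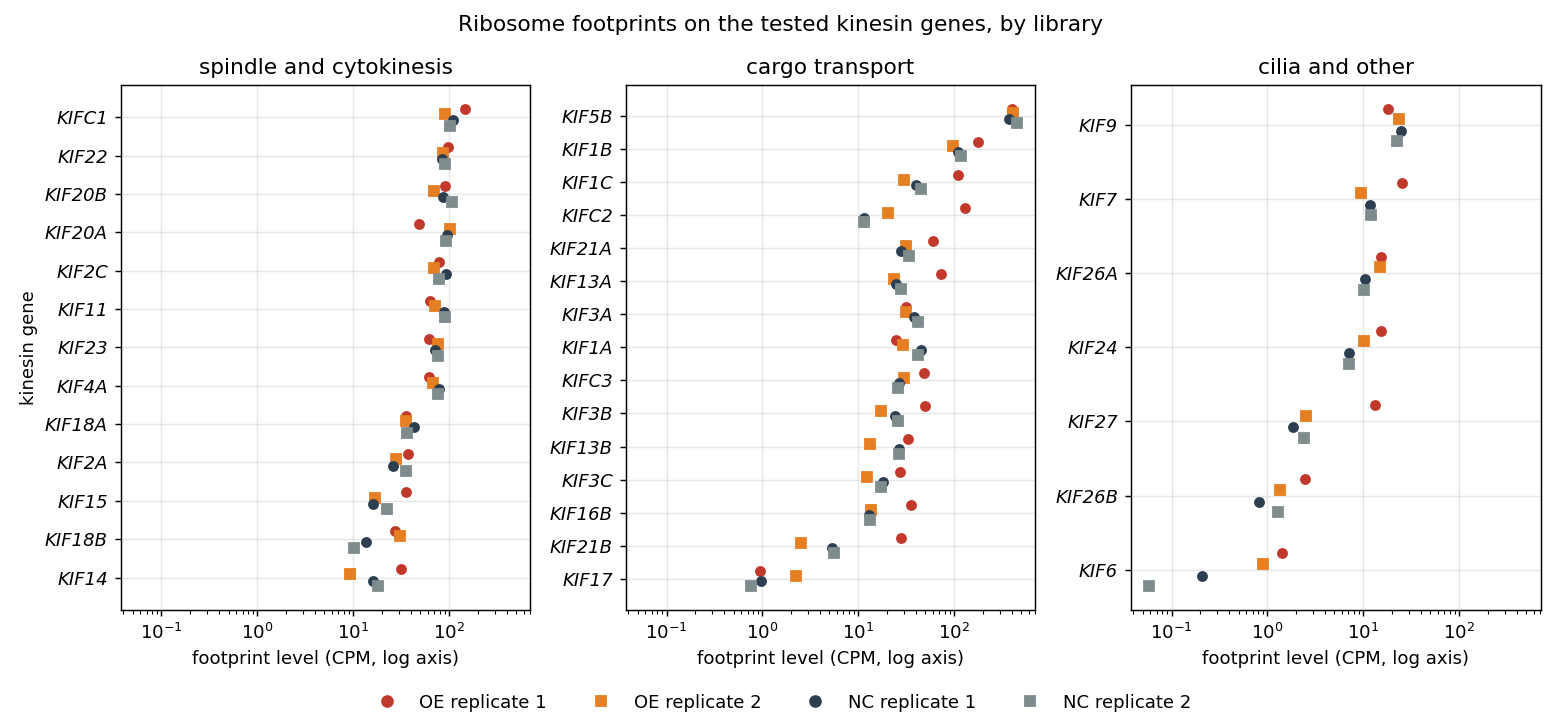
Footprint level in CPM (log axis) of the 35 tested kinesin genes in each of the 4 libraries, by role. NC replicates lie close together for most genes, and OE replicate 1 lies to the right of the other libraries for many transport kinesins, such as KIFC2 at 129 CPM.

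The OE libraries were further apart from each other than the NC libraries for these genes. The median absolute log2 difference between replicates over the 35 kinesins was 0.67 for OE and 0.13 for NC, beside 0.83 and 0.17 over all genes. Relative to the NC mean, 11 kinesins lay above in both OE libraries (31.4%, beside 25.8% of all genes) and 8 below in both (22.9%, beside 24.9%). A further 13 lay above NC in OE replicate 1 and below it in OE replicate 2 (37.1%, beside 25% of all genes), and 3 did the reverse (8.57%, beside 24.3%). Both OE libraries lay above both NC libraries for 9 kinesins (25.7%), against 19.9% of all genes, and below for 6 (17.1%), against 20.4%, or 40.3% of all genes in either direction. With library totals as the only scaling these counts were 10, against 30.2% of all genes, and 1 (KIF1A), against 11.8%.

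**Figure D2:**
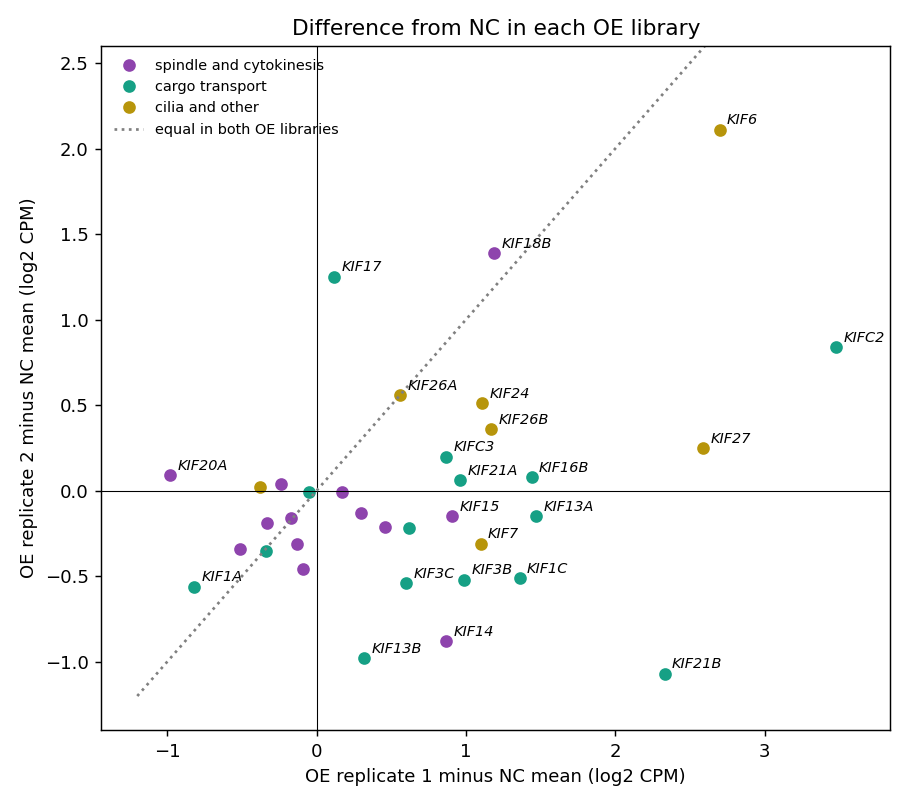
Log2 CPM difference from the NC mean in OE replicate 1 (horizontal axis) and OE replicate 2 (vertical axis) for the 35 tested kinesin genes, coloured by role. KIF18B, KIF6 and KIF26A lie near the dotted line of equal change at the upper right and KIF1A at the lower left, while KIF21B, KIF14, KIF1C and KIF13B lie below the horizontal line with positive values in OE replicate 1.

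Spindle and cytokinesis kinesins had 13 of 15 members tested and a median log2 fold change of -0.09, the medians per library being -0.09 (OE replicate 1) and -0.16 (OE replicate 2). Of the 13, 1 lay higher in both OE libraries and 4 lower, while 8 overlapped, beside 19.9% higher and 20.4% lower among all genes. The member that lay higher was KIF18B. The 4 lower ones, KIF11, KIF2C, KIF4A and KIF18A, overlapped when library totals were the only scaling. In OE replicate 1 they lay at 0.14, 0.51, 0.01 and -0.04 from the median of all genes in their bin of NC level. In OE replicate 2 they lay at -0.34, -0.31, -0.19 and -0.16 from the NC mean, beside bin medians of -0.06 or 0.01. The promoters of spindle kinesins also share letters that the choice by symbol did not use. Of 15 spindle kinesins with a RefSeq promoter (250 bases before to 50 after the start, GRCh38.p14), 10 held TTTGAA on either strand (66.7%). It was held by 1 of 12 transport kinesins (8.33%), 0 of 7 others and 18.2% of the 27305 genes with a promoter used here. TTTGAA is the letter core of the cell cycle homology region, an element found in many genes expressed at the end of the cell cycle. CCAAT, the letters read by the factor NF-Y, was held by 11 of the 15 (73.3%), against 39.7% of genes, and both were held by 9 (60%), against 8.37%. No match of either overlapped a match of the other in these promoters. A match is a description of the letters and not a mapped site. Promoters of 6 spindle kinesins are printed to show how the letters are spaced, 80 bases before to 20 after the start, 5′ to 3′ on the gene's strand, with matches to TTTGAA and to CCAAT on either strand in capitals.
KIF18B, chr17:44947754-44947853, minus strand: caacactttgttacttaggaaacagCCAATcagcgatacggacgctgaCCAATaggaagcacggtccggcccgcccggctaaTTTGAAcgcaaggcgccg
KIF18A, chr11:28108137-28108236, minus strand: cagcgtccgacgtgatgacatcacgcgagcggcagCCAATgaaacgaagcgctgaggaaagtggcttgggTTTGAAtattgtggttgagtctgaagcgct
KIF11, chr10:92593050-92593149, plus strand: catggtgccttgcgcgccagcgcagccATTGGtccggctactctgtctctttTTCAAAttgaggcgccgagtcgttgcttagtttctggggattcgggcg
KIF23, chr15:69414269-69414368, plus strand: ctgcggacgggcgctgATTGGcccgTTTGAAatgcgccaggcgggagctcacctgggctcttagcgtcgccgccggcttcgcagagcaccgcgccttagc
KIF4A, chrX:70290024-70290123, plus strand: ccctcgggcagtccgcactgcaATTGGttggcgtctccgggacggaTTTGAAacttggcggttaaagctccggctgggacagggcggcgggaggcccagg
KIF4B, chr5:155013675-155013774, plus strand: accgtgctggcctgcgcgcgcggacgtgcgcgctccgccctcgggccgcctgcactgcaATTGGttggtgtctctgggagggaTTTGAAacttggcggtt
In KIF18B the match to TTTGAA began at base 3 after the start, with CCAAT at -55 and -32. In KIF18A it began at -10, with CCAAT at -45, and in KIF11 at -28 on the other strand. The windows of KIF4A and KIF4B were identical at 57 of 63 bases in their best ungapped placement. The 9 tested spindle kinesins with TTTGAA had a median log2 fold change of -0.09 (range -0.42 to 1.29) and the 4 without it -0.07 (range -0.34 to 0.09), a description with no test.

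KIF18B (ENSG00000186185), a kinesin-8 that shortens astral microtubules at their plus ends, was the spindle kinesin with more footprints in both OE libraries. It had 27.0 and 31.0 CPM in OE, against 13.5 and 10.3 CPM in NC, or 29.0 ± 2.82 CPM in OE and 11.9 ± 2.32 CPM in NC (SD, n = 2 each). The exact Poisson intervals (95%), limited to counting error, spanned 24.0 to 30.4 and 28.7 to 33.4 CPM in OE, against 12 to 15.3 and 8.80 to 11.9 CPM in NC. Both OE libraries lay above both NC libraries, with differences from the NC mean of 1.19 and 1.39 on the log2 CPM scale. Its log2 fold change of 1.29 (SE 0.32) did not pass the test (unadjusted p 0.00932, adjusted p 0.734, edgeR quasi-likelihood, Benjamini-Hochberg). Leaving out OE replicate 1 gave 1.38 and leaving out OE replicate 2 gave 1.14, where only the NC pair supplies the spread. Its relative KIF18A (ENSG00000121621), which damps chromosome oscillations at the metaphase plate, had 35.3 and 35.6 CPM in OE, against 43.5 and 36.3 CPM in NC, with a log2 fold change of -0.17 (SE 0.29). NC replicate 2 of KIF18A lay within the Poisson intervals of both OE libraries.

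Next come the motors that push spindle microtubules apart and the depolymerases. KIF11 (ENSG00000138160), the kinesin-5 that slides antiparallel microtubules apart to make the spindle bipolar, had 62.8 and 70.8 CPM in OE, against 88.5 and 90.6 CPM in NC. KIF15, a kinesin-12 that can keep spindles bipolar when KIF11 is inhibited, had 35.7 and 17.0 CPM in OE, against 16 and 22.4 CPM in NC. KIF11 lay lower in both OE libraries, with a log2 fold change of -0.42 (SE 0.30), and KIF15 overlapped between the groups, with 0.46 (SE 0.46). KIF2C (MCAK), which takes microtubules apart at centromeres to correct attachments, had 78.8 and 69.4 CPM in OE, against 93.9 and 79.4 CPM in NC. KIF2A, its relative at the spindle poles, had 37.3 and 27.7 CPM in OE, against 26.0 and 35.2 CPM in NC. The log2 fold change was -0.23 (SE 0.31) for KIF2C, whose OE libraries lay below both NC libraries, and 0.09 (SE 0.34) for KIF2A, whose groups overlapped. KIFC1 (HSET), a minus-end directed kinesin-14 that clusters centrosomes, had 146 and 91.7 CPM in OE, against 109 and 103 CPM in NC, with OE replicate 1 above and OE replicate 2 below both NC libraries. With library totals as the only scaling KIF11 kept a negative log2 fold change, while KIF2C turned to 0.12 and KIF18A to 0.16, and none of the 3 lay below both NC libraries.

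Chromokinesins link chromosome arms to microtubules. KIF22 (Kid) had 97.7 and 86.2 CPM in OE, against 83.4 and 89.9 CPM in NC, with a log2 fold change of 0.09 (SE 0.31). KIF4A (ENSG00000090889), which also shapes the central spindle with PRC1, had 61 and 67.2 CPM in OE, against 77.7 and 75.7 CPM in NC, with -0.26 (SE 0.30) and both OE libraries below both NC libraries. With library totals as the only scaling the value of KIF4A was 0.06. KIF4B, a copy of KIF4A without introns, had estimated counts of 0 in both OE libraries, against 12.54 and 5.9 in NC. Reads of these near-identical genes can be split between them by the counting, and both genes had fractional counts in the NC libraries, so KIF4B is given as uncertain.

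Kinesins of the central spindle and midbody differed between the OE libraries. KIF20A (MKLP2), which brings the chromosomal passenger complex to the central spindle, had 48.2 and 101 CPM in OE, against 95.9 and 93.8 CPM in NC. KIF20B (MPP1), a relative that acts late in cytokinesis, had 90.4 and 70.0 CPM in OE, against 86.1 and 108 CPM in NC. KIF20A was low in OE replicate 1 alone and KIF20B was lowest in OE replicate 2, and both overlapped between the groups, with log2 fold changes of -0.34 (SE 0.45) and -0.28 (SE 0.34). KIF23 (MKLP1), the motor subunit of centralspindlin, had 62.4 and 75.9 CPM in OE, against 71.8 and 75.7 CPM in NC. KIF14, which brings citron kinase to the midbody, had 31.3 and 9.22 CPM in OE, against 15.9 and 18.2 CPM in NC. KIF23 differed by less than the spread between replicates, with -0.09 (SE 0.31), and KIF14 was highest in OE replicate 1 and lowest in OE replicate 2, with 0.24 (SE 0.61). KIF2B, a depolymerase, had a count of 0 in all 4 libraries, which allows up to 0.286 CPM in OE replicate 1 and less in the others, taken as 3 counts.

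Partners of the spindle kinesins and genes of the G2 and M phases are set beside them from lists of known genes. Of 25 partners 0 were called, 4 lay higher in both OE libraries (16%) and 7 lower (28%), beside 19.9% and 20.4% of all genes. The partners had a median log2 fold change of 0.07. TPX2, which loads KIF11 onto spindle microtubules, had 149 and 72.9 CPM in OE, against 185 and 208 CPM in NC. PRC1, the microtubule bundler that positions KIF4A, had 149 and 166 CPM in OE, against 212 and 226 CPM in NC. Both lay lower in both OE libraries, with log2 fold changes of -0.82 and -0.47. CENPE, the kinesin-7 of kinetochores, which the symbol rule leaves out, had 46.7 and 27.4 CPM in OE, against 44.3 and 43.1 CPM in NC, and overlapped. The partners with the smallest p were ANLN, the cytokinetic anillin, AURKB and BIRC5. ANLN had 105 and 100 CPM in OE, against 191 and 187 CPM in NC. AURKB had 97.7 and 122 CPM in OE, against 71.0 and 69.1 CPM in NC, and BIRC5 had 105 and 191 CPM in OE, against 94.5 and 66.1 CPM in NC. AURKB and BIRC5, subunits of the passenger complex that KIF20A carries, lay higher in both OE libraries while ANLN lay lower. The other subunits, CDCA8 and INCENP, were named after their values were seen. CDCA8 also lay higher in both OE libraries. INCENP had 119 and 22.7 CPM in OE, against 57.9 and 65.7 CPM in NC, and overlapped. Of 16 genes of the G2 and M phases, 0 were called, 1 lay higher (6.25%) and 3 lower (18.8%) in both OE libraries, beside 19.9% and 20.4% of all genes. The medians of the 16 were -0.50 (OE replicate 1) and 0.09 (OE replicate 2). The G2 and M genes with the smallest p were LIN54, a DNA-binding subunit of the complex that reads the cell cycle homology region, FOXM1 and BUB1. Their log2 fold changes were 0.65, 0.96 and -0.53. LIN54 had 33.1 and 20.9 CPM in OE, against 16 and 18.3 CPM in NC. FOXM1 had 156 and 54.4 CPM in OE, against 50.2 and 58.2 CPM in NC, and overlapped. BUB1 had 93.1 and 90 CPM in OE, against 135 and 130 CPM in NC.

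**Figure D3:**
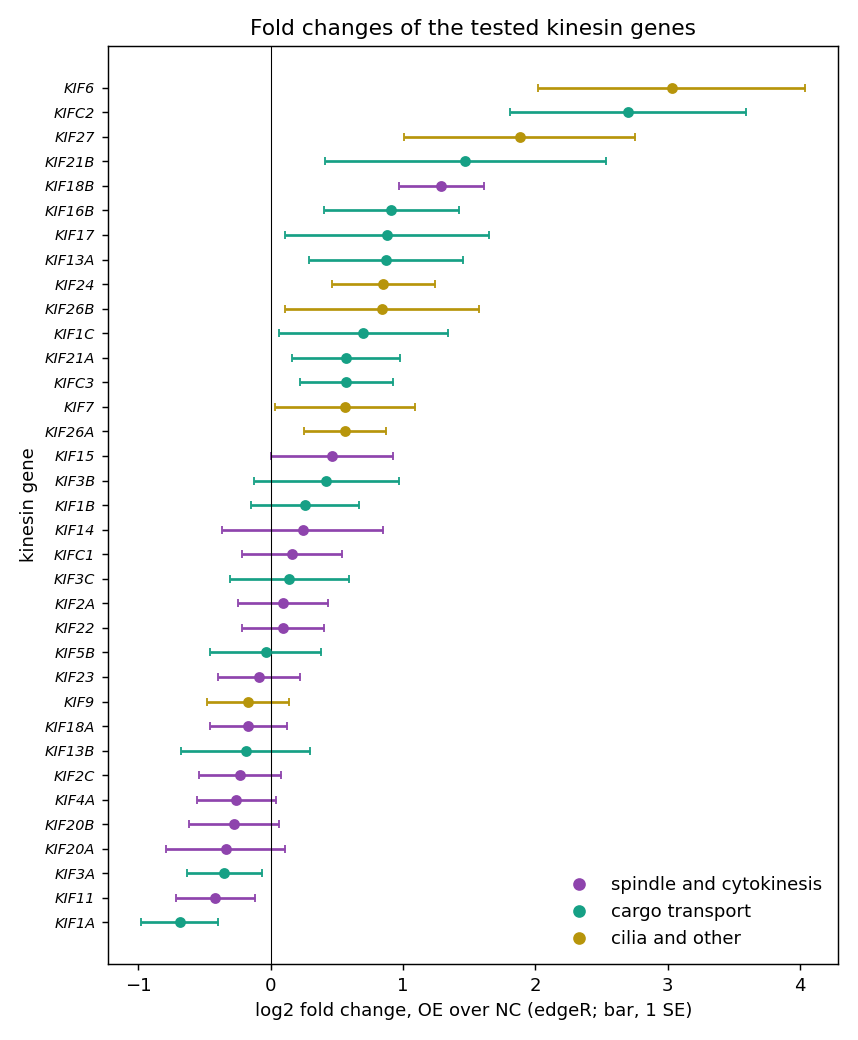
Log2 fold change of OE over NC with its standard error from edgeR for the 35 tested kinesin genes, ordered by value and coloured by role. Spindle kinesins gather between -0.42 and 0.46 apart from KIF18B at 1.29, and the wide bars of KIF6, KIFC2, KIF27 and KIF21B go with their uneven or low counts.

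Transport kinesins had 15 of 17 members tested and a median log2 fold change of 0.57, and the OE libraries lay on opposite sides of NC. The medians per library were 0.87 (OE replicate 1) and -0.22 (OE replicate 2), and their summed level was 1220 and 765 CPM in OE, against 786 and 887 CPM in NC. When OE replicate 1 was left out the median log2 fold change was -0.22, and without OE replicate 2 it was 0.83. Of the 15, 3 lay higher in both OE libraries (KIFC2, KIFC3 and KIF16B) and 2 lower (KIF1A and KIF3A), beside 19.9% and 20.4% of all genes.

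KIFC2 (ENSG00000167702), a kinesin-14 with its motor at the C-terminal end, studied mainly in neurons, had the largest transport difference. It had 129 and 20.6 CPM in OE, against 11.4 and 11.4 CPM in NC. The NC libraries were almost equal, and OE replicate 1 lay 6.25 times as high as OE replicate 2. Its log2 fold change of 2.70 (SE 0.89) had an unadjusted p of 0.0279 and an adjusted p of 0.734 with edgeR quasi-likelihood, and 0.0604 with DESeq2 (Benjamini-Hochberg). Leaving out OE replicate 1 gave 0.85 and leaving out OE replicate 2 gave 3.45, where only the NC pair supplies the spread. In the RefSeq gene table KIFC2 overlaps the protein-coding genes FOXH1 and TMEM276, and 6 other kinesins (KIF2A, KIF7, KIF15, KIF20A, KIF24 and KIF27) overlap another protein-coding gene. The use of strand in counting is unstated, so reads of such neighbours cannot be told apart. KIFC3, a minus-end directed relative found at adherens junctions, had 48.3 and 30.2 CPM in OE, against 26.6 and 26.0 CPM in NC, with 0.57 (SE 0.35). OE replicate 2 of KIFC3 stood only slightly above NC.

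Kinesin-1 is the most general cargo motor, and KIF5B was its only tested heavy chain. KIF5B (ENSG00000170759), the form found in nearly all cells, had 397 and 408 CPM in OE, against 376 and 451 CPM in NC, with a log2 fold change of -0.04 (SE 0.42). The neuronal forms KIF5A and KIF5C had at most 15 counts in a library and were not tested. KIF5A had 15 and 4 counts in OE, against 7 and 1 in NC. KIF5C had 4 and 3 counts in OE, against 0 in both NC libraries, which is near the limit that a count of 0 allows. Of its light chains, KLC1 had 123 and 162 CPM in OE, against 145 and 149 CPM in NC. KLC2 had 36.0 and 61.6 CPM in OE, against 53.4 and 49.5 CPM in NC, and both overlapped between the groups. KLC3 and KLC4, which complete the family and were named after their values were seen, lay lower in both OE libraries. KLC3 had 7.33 and 8.86 CPM in OE, against 12.8 and 11.7 CPM in NC, with -0.59 (SE 0.35). KLC4 had 22.9 and 35.3 CPM in OE, against 40.4 and 41.8 CPM in NC, with -0.50 (SE 0.34), and neither passed the test.

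Kinesin-2 works as a trimer of KIF3A with KIF3B or KIF3C and the adaptor KIFAP3, and drives transport in cilia. KIF3A (ENSG00000131437) had 31.7 and 31.3 CPM in OE, against 38.2 and 41.9 CPM in NC. KIF3B had 50 and 17.4 CPM in OE, against 23.9 and 26.1 CPM in NC, and KIF3C had 27.1 and 12.3 CPM in OE, against 18.3 and 17.4 CPM in NC. KIF3A lay lower in both OE libraries with -0.35 (SE 0.28), though not with library totals as the only scaling, whereas KIF3B and KIF3C were high in OE replicate 1 and low in OE replicate 2, with 0.42 (SE 0.55) and 0.14 (SE 0.45). KIFAP3 had 11.8 and 10.5 CPM in OE, against 19.5 and 21.3 CPM in NC, lower in both OE libraries, with a log2 fold change of -0.87 (SE 0.30) that did not pass the test (unadjusted p 0.0345, adjusted p 0.734, edgeR). The homodimeric KIF17 had between 0.762 and 2.22 CPM and overlapped.

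Kinesin-3 motors are long-distance carriers of vesicles and endosomes. KIF1A (ENSG00000130294), which carries synaptic vesicle precursors in neurons, had 24.5 and 29.5 CPM in OE, against 44.7 and 42.1 CPM in NC, or 27.0 ± 3.55 CPM in OE and 43.4 ± 1.85 CPM in NC (SD, n = 2 each). Both OE libraries lay below both NC libraries, also with library totals as the only scaling, and its log2 fold change of -0.69 (SE 0.29) had an edgeR adjusted p of 0.734. Leaving out OE replicate 1 gave -0.56 and leaving out OE replicate 2 gave -0.87, where only the NC pair supplies the spread. KIF1B, a carrier of mitochondria and vesicle precursors, had 176 and 97.9 CPM in OE, against 109 and 119 CPM in NC. KIF1C, which moves dense core vesicles and Golgi-derived membranes, had 109 and 29.7 CPM in OE, against 40.2 and 44.6 CPM in NC. Both were highest in OE replicate 1 and lowest in OE replicate 2, with 0.26 (SE 0.41) and 0.70 (SE 0.64). KIF13A, a carrier of endosomes and mannose-6-phosphate receptors, had 72.7 and 23.5 CPM in OE, against 24.8 and 27.6 CPM in NC. KIF13B, which binds the scaffold DLG1, had 33.1 and 13.4 CPM in OE, against 26.5 and 26.6 CPM in NC. KIF13A was high in OE replicate 1 alone and KIF13B low in OE replicate 2, with a difference from the NC mean of 0.32 and -0.98 in OE replicates 1 and 2. The log2 fold changes were 0.87 (SE 0.58) for KIF13A and -0.19 (SE 0.49) for KIF13B. KIF16B, which moves early endosomes, had 35.3 and 13.7 CPM in OE, against 12.9 and 13.1 CPM in NC, with 0.91 (SE 0.51) and OE replicate 2 close to NC.

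The kinesin-4 members of transport are KIF21A and KIF21B. KIF21A, which slows microtubule growth near the cell cortex, had 59.6 and 31.7 CPM in OE, against 27.6 and 33.6 CPM in NC, with 0.57 (SE 0.41). KIF21B had 27.9 and 2.53 CPM in OE, against 5.30 and 5.57 CPM in NC, with 1.47 (SE 1.06). KIF21B had the most uneven OE libraries of the tested kinesins, OE replicate 1 being 11 times OE replicate 2, and the NC libraries lay between them.

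Light chains, adaptors and regulators of cargo kinesins had a median log2 fold change of -0.05 over 20 tested genes, with 0 called. In both OE libraries 3 lay higher (15%) and 5 lower (25%), beside 19.9% and 20.4% of all genes. RHOT2, a mitochondrial GTPase that anchors kinesin adaptors, had 240 and 85.5 CPM in OE, against 54.4 and 53.7 CPM in NC. PLEKHM1, a lysosomal adaptor, had 34.9 and 17.3 CPM in OE, against 12.4 and 12.4 CPM in NC. Both lay higher in both OE libraries, with log2 fold changes of 1.59 and 1.07, OE replicate 1 being the higher. KIFBP, which holds several kinesins off microtubules, had 36.7 and 101 CPM in OE, against 75.3 and 74.5 CPM in NC, and overlapped.

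Kinesins of cilia and other roles had 7 of 10 members tested and a median log2 fold change of 0.84. In both OE libraries 5 lay above both NC libraries and 0 below, beside 19.9% and 20.4% of all genes. The 5 were KIF26A, KIF24, KIF27, KIF26B and KIF6, and KIF6 passed the filter only through its OE counts. In OE replicate 1 these 5 lay 0.16, 0.54, 1.86, 0.01 and 1.54 above the median of all genes in their bin of NC level. The medians per library over the 7 were 1.11 (OE replicate 1) and 0.36 (OE replicate 2). KIF26A, which lacks motor ATPase activity and acts in signalling, had 15.2 and 15.1 CPM in OE, against 10.4 and 10.1 CPM in NC, the most even of them, with 0.56 (SE 0.31). KIF24, which limits cilia formation by acting on centriolar microtubules, had 15.4 and 10.1 CPM in OE, against 7.11 and 7.03 CPM in NC, with 0.85 (SE 0.39). Both genes lay higher in both OE libraries, KIF26A by nearly the same amount in each. KIF27, a relative of KIF7, had 13.3 and 2.53 CPM in OE, against 1.85 and 2.40 CPM in NC, with 1.88 (SE 0.87) and OE replicate 2 close to NC. KIF26B had 2.47 and 1.36 CPM in OE, against 0.824 and 1.29 CPM in NC, with 0.84 (SE 0.73), and its intervals overlapped between OE replicate 2 and NC. KIF6 (ENSG00000164627), a kinesin-9, had 1.43 and 0.904 CPM in OE, against 0.206 and 0.0586 CPM in NC, which is 14.72 and 19.95 estimated counts in OE, against 4.11 and 1.21 in NC. These fractional counts are few, and the log2 fold change of 3.03 (SE 1.01) did not pass the test (unadjusted p 0.029, adjusted p 0.734, edgeR). Leaving out OE replicate 1 gave 2.68 and leaving out OE replicate 2 gave 3.28, where only the NC pair supplies the spread. KIF7, which organises the tip of the cilium in Hedgehog signalling, had 25.5 and 9.49 CPM in OE, against 11.7 and 12 CPM in NC. KIF9, a kinesin-9 of cilia and flagella, had 18 and 23.8 CPM in OE, against 24.8 and 22.3 CPM in NC, and both overlapped between the groups. KIF12, KIF19 and KIF25 had at most 15 counts in a library and were not tested. KIF25 had 5 and 2 counts in OE, against 0 in both NC libraries.

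The differences in OE replicate 1 were read against all genes of the same NC level, with genes split into 10 equal bins by NC level. Relative to the median of their bin, 29 of 35 kinesins lay above it (OE replicate 1) and 16 of 35 (OE replicate 2), beside 50% of all genes by construction. Spindle kinesins lay above it for 11 of 13 and 4 of 13 in the same order, transport kinesins for 12 of 15 and 6 of 15, and kinesins of cilia and other roles for 6 of 7 in both. The median distance from the bin's median was 0.51 and -0.17 for spindle and 0.94 and -0.17 for transport kinesins in OE replicates 1 and 2. For kinesins of cilia and other roles it was 0.54 and 0.45. Of 15 tested tubulins, the subunits of the track, 0 were called, 0 were above and 1 below NC in both OE libraries, and 5 lay above their bin's median in OE replicate 1, with median log2 differences from NC of -1.33 there and 0.30 in the other. Tubulins with the smallest p were TUBA1A, TUBE1 and TUBG2, with log2 fold changes of -0.73, 0.70 and 0.69. TUBA1A had 158 and 320 CPM in OE, against 397 and 397 CPM in NC. TUBE1 had 20.5 and 9.09 CPM in OE, against 9.84 and 8.27 CPM in NC. TUBG2 had 47 and 17.1 CPM in OE, against 18.8 and 20.8 CPM in NC. TUBE1 and TUBG2 overlapped between the groups. Cytoplasmic dynein and dynactin, the motor of the opposite direction, had 28 tested genes with 0 called, and medians of -0.31 (OE replicate 1) and 0.06 (OE replicate 2). In both OE libraries 6 of the 28 lay higher (21.4%) and 7 lower (25%), beside 19.9% and 20.4% of all genes. The dynein genes with the smallest p were DYNLRB1 with -0.73, HOOK2 with 0.82 and DYNLL2 with 0.61. DYNLRB1 had 84.7 and 77.9 CPM in OE, against 143 and 127 CPM in NC. HOOK2 had 113 and 65.3 CPM in OE, against 51.3 and 49.5 CPM in NC. DYNLL2 had 21.6 and 19.4 CPM in OE, against 14.2 and 12.6 CPM in NC.

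**Figure D4:**
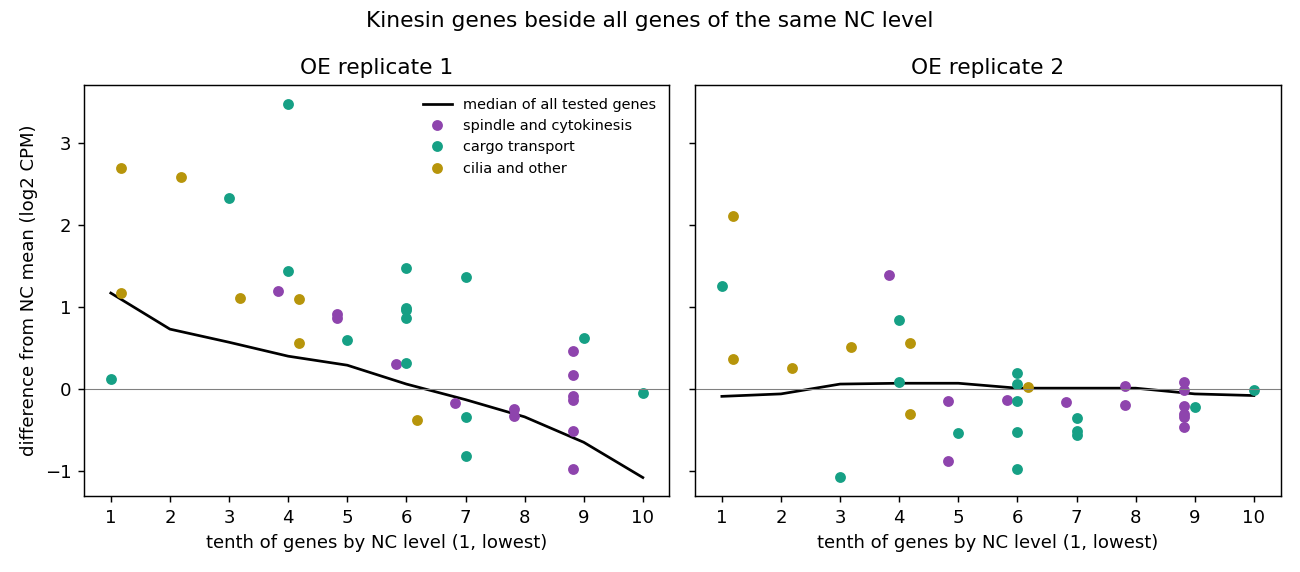
Log2 CPM difference from the NC mean for each tested kinesin gene, placed by the bin of NC level (10 equal bins of all genes) it belongs to, for OE replicate 1 and OE replicate 2. The line is the median of all tested genes in each bin, which reaches -1.08 in OE replicate 1 and stays near 0 in OE replicate 2.

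Ratios of counts between 2 kinesins of one subfamily need no scaling between libraries. Over 38 such pairs, from 24 kinesins with at least 10 CPM on average, a pair's ratio was higher or lower in both OE libraries for 20 (52.6%), against 41.7% of all pairs of genes at that level. These 38 pairs share members and are not independent. Most of the 20 lay within the kinesin-3 subfamily, which also supplied most of the 38 pairs. Most pairs of the other subfamilies overlapped. KIF18B over KIF18A was 0.765 and 0.872 in OE, against 0.311 and 0.282 in NC, the same in direction and close in size in both OE libraries. KIF13B over KIF13A was 0.455 and 0.571 in OE, against 1.07 and 0.962 in NC. KIF16B over KIF13B was 1.07 and 1.02 in OE, against 0.486 and 0.492 in NC. In the pairs among KIF13A, KIF13B and KIF16B the OE replicates were near each other in ratio although the single genes were not: KIF13A, KIF13B and KIF16B were each between 2.47 and 3.09 times as high in OE replicate 1 as in OE replicate 2. KIFC2 over KIFC1 was 0.879 and 0.224 in OE, against 0.105 and 0.111 in NC, higher in both OE libraries but unevenly so. KIF3B over KIF3A was 1.58 and 0.554 in OE, against 0.627 and 0.624 in NC, and KIF20B over KIF20A was 1.88 and 0.692 in OE, against 0.897 and 1.15 in NC. KIF3B over KIF3A and KIF20B over KIF20A overlapped, with the OE libraries on either side of NC. An exact two-sided permutation test of 2 against 2 libraries cannot go below p = 0.333, so the ratios are given as values.

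**Figure D5:**
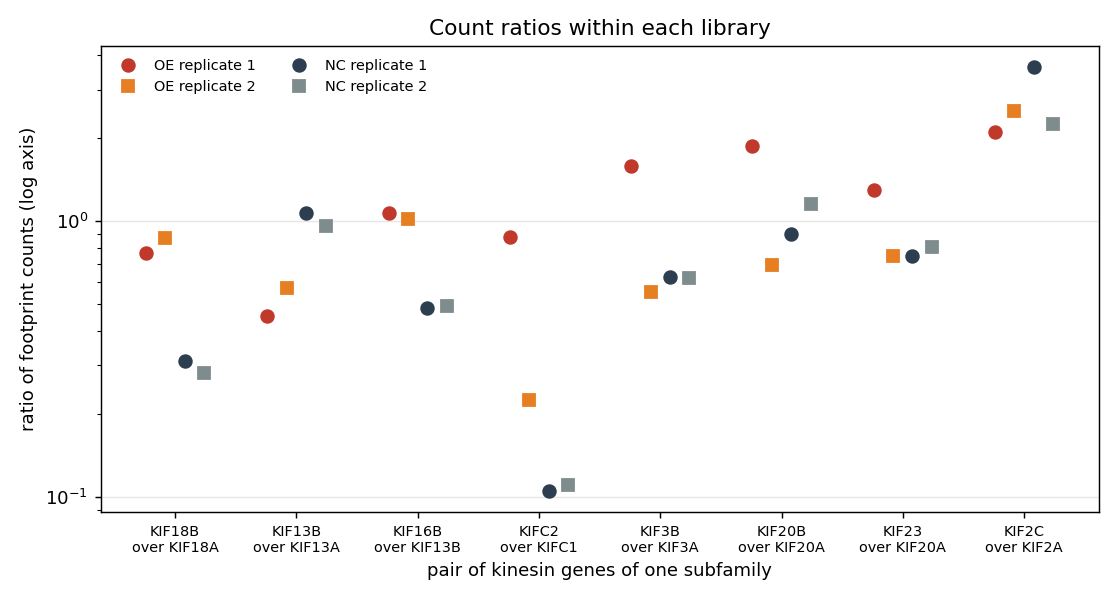
Ratio of footprint counts (log axis) between 2 kinesin genes of one subfamily within each library, for 8 pairs chosen after their values were seen. KIF18B over KIF18A and KIF16B over KIF13B lie above NC in both OE libraries and KIF13B over KIF13A below, whereas KIF3B over KIF3A and KIF20B over KIF20A lie on either side.

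When OE replicate 1 was left out, 11 of 36 kinesins were called by edgeR (34.1% of all genes), 2 higher (16.8% of all genes) and 9 lower (17.3%). KIF18B and KIFC2 were the higher ones, and KIF13B, KIF14, KIF1A, KIF1C, KIF20B, KIF21B, KIF3B, KIF3C and KIF4B the lower ones. When OE replicate 2 was left out, 22 of 38 were called (60.9% of all genes), 19 higher (30.1%) and 3 lower (30.8%), namely KIF11, KIF1A and KIF20A. In both of these fits the lone OE library was assumed to vary like the NC pair. The fits share both NC libraries, so they are not independent. Leaving out NC replicate 1 or NC replicate 2 gave 0 called kinesins, with 0.0844% and 0.0534% of all genes called.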

How the data were processed

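Ribosome footprints of 4 libraries (2 OE, 2 NC) were analysed. The authors deposited 1 estimated count per Ensembl gene and library, unscaled, per the file headers. Between 13.8% and 14.7% of values held a fraction, so counts were rounded to whole numbers. Per the submitters' processing notes, the tools were RSEM, StringTie, HISAT2, Bowtie2 and fastp on hg18. Neither version, order or settings nor the use of strand was given in the sources used here. Chromosome positions are printed only for RefSeq promoters of GRCh38.p14, a build other than the one named, in which 34 of the 42 kinesins had an entry used here. Promoters on a chromosome that was not used were left out, also from the shares over all genes.

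Counts were tested in R 4.3.3 with edgeR 4.0.16 (filterByExpr with a minimum count of 10, minimum total of 15 and proportion of 0.7; TMM; quasi-likelihood test of group alone; Benjamini-Hochberg over 12560 genes; threshold 0.05), with DESeq2 1.42.0 as an alternative. The biological coefficient of variation was 0.423, with 2 residual degrees of freedom. A standard error is the log2 fold change over the root of the test statistic. Differences per library are of log2 CPM with a prior count of 2. The chi-square between replicates, per degree of freedom, was 350 for OE and 13.4 for NC, so replicates differed by more than counting noise and each library was counted as 1 sample. Rows without a symbol (169) were kept in the fit. Alternatives were other scalings, filters and tests, a replicate block, summed symbols and leaving out each library. The members and lists were chosen with earlier results of these data known, and roles were assigned from general knowledge. Per-library values are printed for tested kinesins with a mean of at least 10 CPM or groups that did not overlap; of each companion list, the 3 smallest p and the direct partners of the motors are named. Levels per codon and protein comparisons were not analysed here, so levels are not compared between genes. Scripts were tested on simulated data.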

Additional observations from a re-analysis of the deposited data

How the results depend on the processing

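No kinesin was called in any of the 8 other fits over all 4 libraries, where the number of genes called over the whole table was 0 except for 25 with the DESeq2 Wald test, 29 with edgeR's likelihood ratio test and 24 with the replicate block. The numbers ranged from 7 to 7969 genes and from 0 to 22 kinesins when each library was left out. Library totals as the only scaling moved the median of all genes to 0.40 and the spindle median to 0.21, or -0.19 relative to all genes, as with TMM, and turned KIF13B to 0.25, KIF18A to 0.16, KIF20B to 0.09, KIF23 to 0.21, KIF2C to 0.12, KIF4A to 0.06, KIF5B to 0.29 and KIF9 to 0.12. The transport median relative to all genes was 0.57 there, against 0.48. Deviations from the group mean in libraries of the same replicate number had a correlation of -0.097 over 12560 genes. With OE replicate 1 standing apart, this value cannot decide whether the replicate numbers mark a pairing. The main fit used group alone, and the replicate block gave KIF14 a log2 fold change of 0.00 and a transport median of 0.42. Leaving out each library in turn, medians ranged from -0.17 to -0.09 for spindle and from -0.22 to 0.83 for transport kinesins. Log2 fold changes that turned ranged from -0.15 to 1.43 for KIF13A, -0.98 to 0.28 for KIF13B, -0.88 to 0.84 for KIF14, -0.17 to 0.86 for KIF15, -0.22 to 0.58 for KIF1B, -0.51 to 1.32 for KIF1C, -1.02 to 0.09 for KIF20A, -1.10 to 2.32 for KIF21B, 0.00 to 0.13 for KIF22, -0.28 to 0.04 for KIF23, -0.14 to 0.28 for KIF2A, -0.53 to 0.96 for KIF3B, -0.54 to 0.56 for KIF3C, -0.18 to 0.06 for KIF5B, -0.31 to 1.07 for KIF7, -0.43 to 0.02 for KIF9 and -0.21 to 0.42 for KIFC1. The cause of these changes was not tested. At the depth of OE replicate 1 a count of 0 allows up to 0.286 CPM.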
